A study of Homo sapiens with 9 samples.

Results

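The interferon-stimulated and RNA-sensing genes of hTERT_RPE1 cells were taken as 53 gene symbols of a fixed list, and all 53 were found among the 26475 symbols of the count table. The rule takes members by symbol, although the list was made with earlier results of these data known, and 49 of them had enough counts to be tested among 13784 tested genes. hTERT_RPE1 is an established human cell line that derives from the pigmented epithelium of the retina and divides without limit through added telomerase. RNA was sequenced from 9 libraries in 3 conditions of 3 libraries, 24 h after seeding. In the sh_PIP4K2B condition cells grew on fibronectin-coated glass, and the gene of the lipid kinase PIP4K2B was silenced with hairpin #1, #2 or #3, so that each hairpin is represented by 1 library. Control cells grew on the same coated glass, and Soft cells grew on a fibronectin-coated hydrogel of 2.3 kPa. Control and Soft cells carried the empty pLKO vector by their sample titles and the paper but a control shRNA by their treatment label, and it is not settled which of these is right. All libraries thus come from transduced cells, and no untransduced cells are among them. The comparisons ask how the silencing of PIP4K2B and a soft substrate change the level of these RNAs in relation to Control.

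Cells detect foreign or misplaced nucleic acids through sensors such as RIG-I and MDA5, which bind double-stranded RNA and signal through the adaptor MAVS, and cGAS, which binds DNA and signals through STING. These pathways activate the factors IRF3 and IRF7, which switch on interferon genes. Secreted interferon binds its receptors, and a complex of STAT proteins with IRF9 then binds the interferon-stimulated response element (ISRE) at promoters of antiviral effector genes, while IRF1 drives genes of antigen processing. Epithelial cells such as those of the retinal pigment layer can run this response without immune cells, and short double-stranded RNAs are a known trigger of parts of it.

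Library totals were between 19217336.0 and 24020796.0 estimated counts, and levels are given as CPM, the count scaled to a common library size, after TMM scaling, on which 3 counts in a library correspond to 0.131 to 0.148 CPM. The median SD of log2 CPM between libraries was 0.0812 in Control, 0.0735 in Soft and 0.361 in sh_PIP4K2B, where the hairpins differed from each other. PIP4K2B itself was at 39.6%, 33.5% and 30% of its Control mean with hairpins #1, #2 and #3. Of the markers of retinal pigment epithelium MITF, OTX2 and PAX6 were detected in every library. PAX6 was at 62.2 to 65.2 CPM and OTX2 at 34.8 to 39.4 CPM in Soft against at most 25.1 and 19.6 CPM elsewhere. MITF went the other way, with 25.9 to 26.4 CPM in Soft against 34.3 to 39.3 CPM in Control and 24.4 to 37.9 CPM with the hairpins. RPE65 and TYR had at most 1 count in a library and RLBP1 had counts only in Soft. BEST1, PMEL and TYRP1 reached at most 0.775, 0.939 and 0.247 CPM in a library. Of the leukocyte markers CD3E and LYZ were at or below 0.0989 CPM in all libraries and PTPRC at or below 0.524 CPM, whereas CD14 was between 0.524 and 0.775 CPM in Soft against at most 0.247 CPM elsewhere, and the endothelial marker CDH5 reached at most 0.0482 CPM. Another endothelial marker, PECAM1, was between 4.34 and 5.33 CPM in Soft against at most 0.346 CPM elsewhere, and the epithelial keratin KRT8 ran from 1040 to 1140 CPM among the Control libraries, from 372 to 675 CPM among the hairpins and from 536 to 559 CPM on the soft gel, where KRT7 ran from 15.7 to 16.1 CPM against 12.4 to 12.8 CPM in Control. KRT18 ran from 877 to 937 CPM in Control, from 336 to 495 CPM with the hairpins and from 347 to 384 CPM in Soft. CD79A was at or below 0.494 CPM and VWF at or below 0.655 CPM in all libraries. The part of these markers in the results was not tested. In bulk RNA a lower level in all cells and a lower share of cells with the RNA cannot be told apart.

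Promoter windows of 300 bases around the start were on hand for 41 of the 53 members (RefSeq, GRCh38.p14). The core of the ISRE, which is GAAA, any 2 bases and GAAA again, on either strand, was found in 24 of the 41 windows (58.5%), against 3.57% of 35116 windows of all genes. The element TTCNNNGAA, to which STAT dimers bind, which reads the same on both strands, was found in 9 of them (22%), against 7.66% of all windows. The match nearest to the start is printed 5′ to 3′ on the strand of the gene in 30 bases each, for the 8 members with a match that changed in a test below and for IFIT1 and MX1, whose levels differed between hairpins. Capitals mark the core, which reads TTTC, any 2 bases and TTTC where it lies on the opposite strand.
IFI6 (chr1:27672266-27672295, minus strand): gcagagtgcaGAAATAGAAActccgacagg
HERC5 (chr4:88457035-88457064, plus strand): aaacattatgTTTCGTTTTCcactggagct
B2M (chr15:44711369-44711398, plus strand): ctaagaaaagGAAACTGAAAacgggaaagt
PARP14 (chr3:122680800-122680829, plus strand): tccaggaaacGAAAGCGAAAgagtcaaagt
OAS3 (chr12:112938452-112938481, plus strand): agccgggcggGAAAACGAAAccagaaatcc
SAMD9 (chr7:93118096-93118125, minus strand): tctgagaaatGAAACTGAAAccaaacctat
GBP1 (chr1:89065316-89065345, minus strand): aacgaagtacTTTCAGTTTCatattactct
EIF2AK2 (chr2:37156967-37156996, minus strand): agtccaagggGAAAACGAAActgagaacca
IFIT1 (chr10:89392510-89392539, plus strand): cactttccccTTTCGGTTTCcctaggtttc
MX1 (chr21:41420559-41420588, plus strand): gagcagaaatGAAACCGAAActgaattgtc
No core match was found in the windows of HLA-B, HLA-C, PSMB8, PSMB9, UBE2L6, IRF1, IRF9 and DDX58, which says only that these letters are not in those windows.

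In sh_PIP4K2B 7 of the 49 tested members rose and none fell at an adjusted p below 0.01 (edgeR), that is 14.3% of them, whereas 5.54% of all tested genes passed, 2.76% higher and 2.77% lower. Below an unadjusted p of 0.05 were 27 members and 33.2% of all tested genes. The 7 were the interferon-induced gene IFI6, the factors IRF1 and IRF2, the ISG15 ligase HERC5 and the antigen presentation genes HLA-B, HLA-C and B2M. In Soft 21 members changed, 13 higher and 8 lower (26.5% and 16.3% of the 49), in comparison with 15.8% higher and 14.8% lower among all tested genes. The median log2 fold change of the 49 members was 0.47 in sh_PIP4K2B and 0.48 in Soft, and that of all tested genes was 0.05 and 0.01. Scaling by library totals alone moved the median of all tested genes to 0.14 in sh_PIP4K2B and 0.12 in Soft and gave 14 higher and 4 lower members in Soft. Both comparisons use the same Control libraries, so they are not independent of each other. The difference between the groups is laid out by library in the heat map of all tested members.

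**Figure D1:**
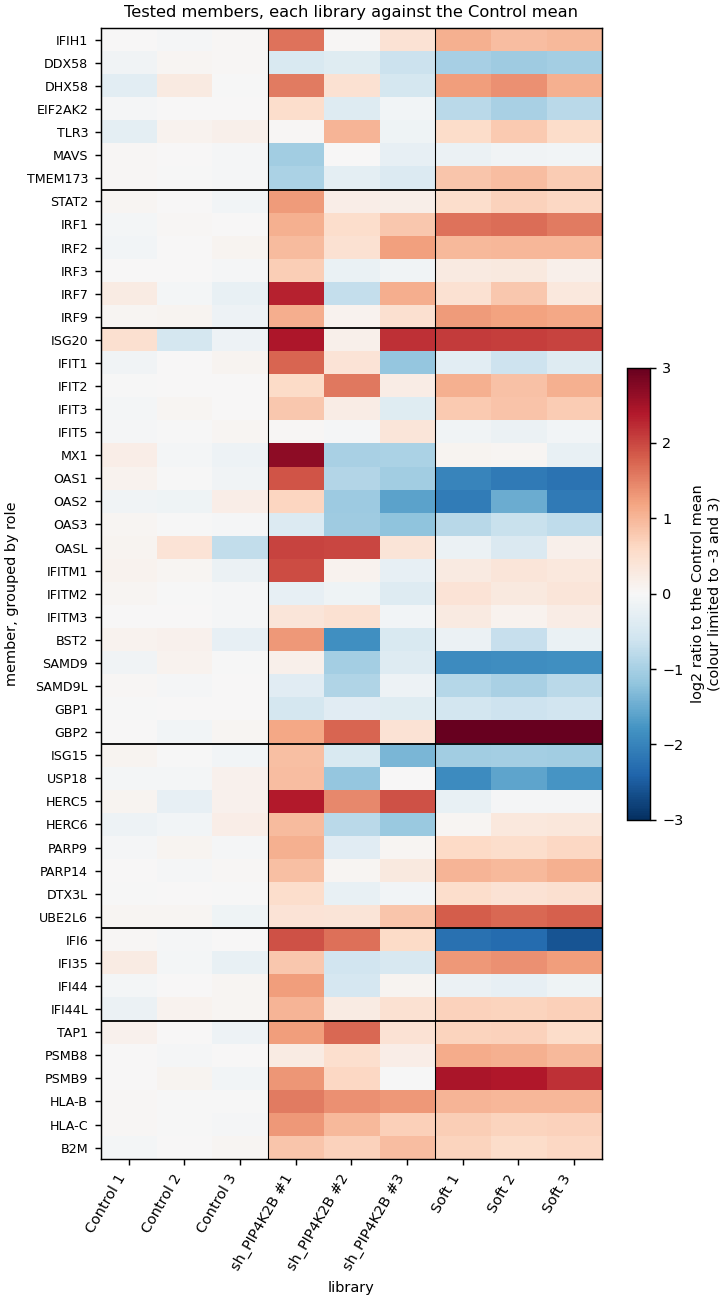
Log2 ratio of each of the 49 tested members to the Control mean in the 9 libraries (columns), with members in rows grouped by role from sensors (top) to antigen presentation (bottom). Red is higher and blue is lower than Control. The column of hairpin #1 is mostly red (23 members 2-fold or more higher), those of hairpins #2 and #3 are mixed, and the 3 Soft columns look alike.

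The 7 calls of sh_PIP4K2B depended on the libraries in the fit. In a fit of Control and sh_PIP4K2B alone none of the members passed (edgeR), and 0.0375% of all genes tested there passed. In that fit 19 members were below an unadjusted p of 0.05, for which the share of all genes is not given here. DESeq2 over the 9 libraries called 11 members higher and 3 lower (15% of all genes called). The higher ones were the 7 with GBP2, ISG20, TAP1 and UBE2L6, and the lower ones were DDX58, GBP1 and OAS3. HLA-B alone passed without Control replicate 1 or 2, HERC5 and HLA-B passed without Control replicate 3, and B2M, HERC5 and HLA-B passed without Soft replicate 1, 2 or 3. Of all genes 0.872%, 0.471% and 1.15% passed without Control replicate 1, 2 and 3. Without Soft replicate 1, 2 and 3 these shares were 2.37%, 2.42% and 2.24%, against 5.54% with all libraries. Without hairpin #1, #2 or #3 the number of members past the threshold was 10, 10 and 12 (with 11.9%, 14.4% and 12.7% of all genes past it), and without hairpin #1 these were 5 higher and 5 lower members with a median of 0.04 over all members tested.

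Each hairpin gave its own pattern over these genes. With hairpin #1 23 of the 49 members were at least 2-fold above the Control mean (46.9%, against 7.47% of all tested genes) and 1 was at least 2-fold below it (2.04%, against 10.3%). With hairpin #2 there were 8 higher and 5 lower members (16.3% and 10.2%, against 4.22% and 3.69% of all genes), and with hairpin #3 5 higher and 6 lower (10.2% and 12.2%, against 7.84% and 4.82%). The median log2 ratio of the members to the Control mean was 0.95, 0.06 and 0.00 with hairpins #1, #2 and #3, and that of all tested genes was 0.01, 0.02 and 0.02. Since each hairpin has 1 library, these are values of libraries without a test. At least 2-fold higher with all 3 hairpins were HERC5 and HLA-B, which is 4.08% of the members against 1.07% of all genes. No member was 2-fold lower with all 3, against 0.392% of all genes. Highest of all 9 libraries in hairpin #1 were 26 members (53.1%, against 23% of all genes).

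**Figure D2:**
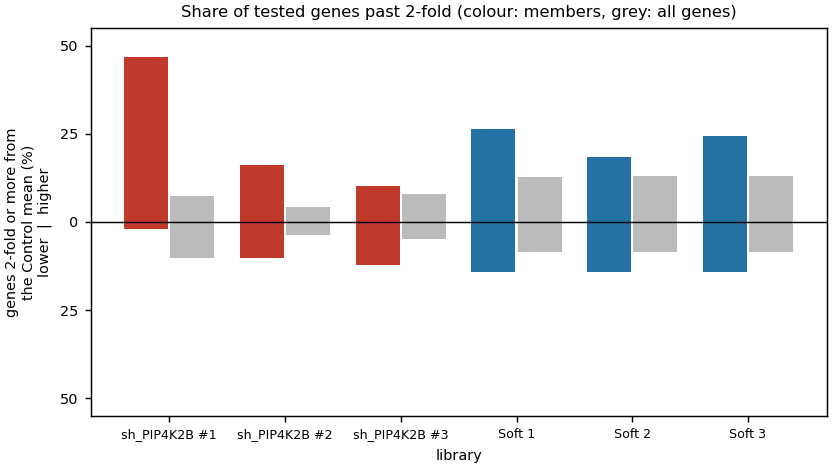
Percentage of tested genes at least 2-fold higher (above 0) or lower (below 0) than the Control mean in each hairpin and Soft library, with the 49 members in colour and all 13784 tested genes in grey. With hairpin #1 the members stand at 46.9% higher against 7.47% of all genes, and with hairpin #3 at 10.2% against 7.84%.

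Members that rose at least 2-fold with hairpin #1 and did so with neither of the others numbered 15 (30.6%, against 4.33% of all genes), and they include typical genes of the type I interferon response. MX1, a GTPase that traps viral nucleocapsids, was at 0.792, 0.658 and 0.612 CPM in Control, 4.56, 0.337 and 0.346 CPM with hairpins #1, #2 and #3, and 0.73, 0.714 and 0.581 CPM in Soft. OAS1, an enzyme that senses double-stranded RNA, was at 4.28, 3.99 and 3.76 CPM in Control, 14.8, 2.17 and 1.93 CPM with hairpins #1, #2 and #3, and 1, 0.905 and 0.849 CPM in Soft. IFIT1, a protein that binds viral RNA lacking a host cap, was at 16, 17.3 and 18.1 CPM in Control, 57.3, 22.8 and 7.66 CPM with hairpins #1, #2 and #3, and 13.8, 11.1 and 13.1 CPM in Soft. For all of these the library of hairpin #1 was the highest of the 9, while MX1 and OAS1 were below every Control library with hairpins #2 and #3 and IFIT1 was below them with hairpin #3. Of the 15 members 5 were below all Control libraries with hairpin #2 and 6 with hairpin #3. The share of all tested genes below Control in a single hairpin library is not given here. The median SD of log2 CPM was 0.0812 in Control against 0.361 between hairpins, so these 2 counts are not read as particular to the members. None of MX1, OAS1 and IFIT1 passed the test in sh_PIP4K2B (adjusted p = 0.31, 0.52 and 0.34, edgeR). These genes were chosen after their values were seen.

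**Figure D3:**
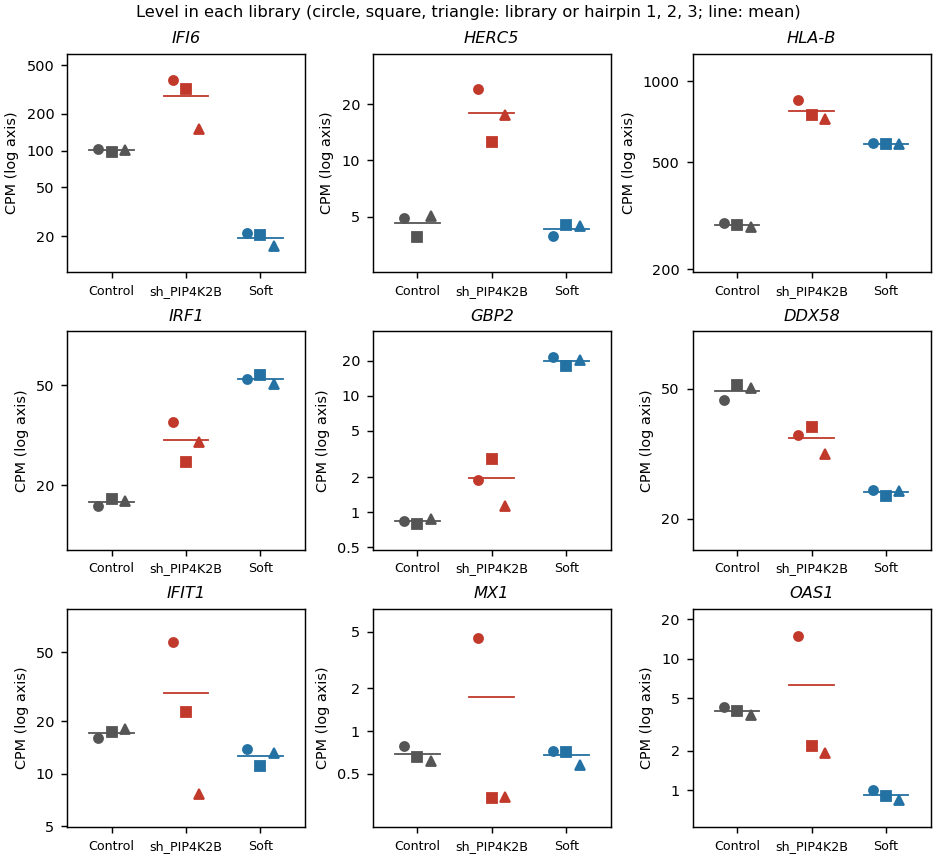
CPM on a log axis for 9 members in Control, sh_PIP4K2B and Soft, with a circle, square and triangle for library or hairpin 1, 2 and 3 and a line at the mean. HLA-B and HERC5 are above Control with every hairpin, IFIT1, MX1 and OAS1 are highest with hairpin #1, and GBP2 is between 18 and 21.6 CPM in Soft.

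Sensors of RNA and DNA and their adaptors did not pass the threshold in sh_PIP4K2B in any of 7 cases (edgeR), where 5.54% of all tested genes passed. Of them 3 were below an unadjusted p of 0.05 and 1 was called by DESeq2 (against 33.2% and 15% of all tested genes). In Soft 1 of 7 rose and 2 fell (14.3% and 28.6%, against 15.8% and 14.8% of all tested genes). DDX58, now named RIGI, encodes the sensor RIG-I (chromosome 9, 32455302 to 32526208, minus strand, GRCh38). It was at 46, 51.4 and 50.1 CPM in Control, 36.1, 38.2 and 31.5 CPM with hairpins #1, #2 and #3, and 24.5, 23.4 and 24.3 CPM in Soft. All hairpin libraries and all Soft libraries were below the lowest Control library, and Soft was the lowest of the groups. DDX58 fell in Soft (log2 fold change -1.03, SE 0.11, adjusted p = 9.5e-05, edgeR) and had a log2 fold change of -0.48 in sh_PIP4K2B (SE 0.11, adjusted p = 0.016, edgeR). In sh_PIP4K2B DDX58 was called lower by DESeq2 and by edgeR without hairpin #1 or #2. Of the 75-mers of its transcript, 75 nt being the read length, 96.6% are shared with another annotated gene, so its count depends on how such reads were assigned.

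IFIH1, the gene of the long double-stranded RNA sensor MDA5, went the other way in value. It was at 5.73, 5.49 and 5.77 CPM in Control, 17.6, 5.83 and 7.66 CPM with hairpins #1, #2 and #3, and 11.9, 10.7 and 11.1 CPM in Soft. All Soft libraries and all hairpin libraries were above Control, by a small margin with hairpin #2. Neither comparison passed over the 9 libraries (log2 fold change 0.88, SE 0.35, adjusted p = 0.11, edgeR in sh_PIP4K2B, and log2 fold change 0.99, SE 0.35, adjusted p = 0.04, edgeR in Soft). DHX58, which encodes the regulator LGP2, was at 3.35, 5.05 and 4.11 CPM in Control, 12.3, 5.73 and 2.87 CPM with hairpins #1, #2 and #3, and 10, 10.8 and 8.76 CPM in Soft. Its Soft libraries lay above Control and its hairpin libraries on both sides (log2 fold change 0.74, SE 0.43, adjusted p = 0.26, edgeR in sh_PIP4K2B, and log2 fold change 1.24, SE 0.43, adjusted p = 0.038, edgeR in Soft). In the fit of Control and Soft alone IFIH1 and DHX58 were called higher, where 70.7% of all genes tested passed. Both were also called higher in Soft without hairpin #1, and DHX58 without hairpin #3 (45.6% and 41.7% of all genes called). EIF2AK2, the gene of the kinase PKR that halts translation upon binding double-stranded RNA, was at 46.4, 48.4 and 48.2 CPM in Control, 68.8, 36.2 and 45.2 CPM with hairpins #1, #2 and #3, and 27.3, 24.4 and 27.3 CPM in Soft. The Soft libraries were all below Control and the test was passed (log2 fold change -0.86, SE 0.20, adjusted p = 0.0074, edgeR), while the hairpin libraries fell on both sides of Control (log2 fold change 0.07, SE 0.20, adjusted p = 0.84, edgeR).

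TLR3, the endosomal receptor of double-stranded RNA, was at 2.75, 3.64 and 3.76 CPM in Control, 3.45, 6.89 and 3.11 CPM with hairpins #1, #2 and #3, and 4.97, 5.81 and 5.01 CPM in Soft. Only hairpin #2 stood clearly above Control among the hairpins, and all Soft libraries were above it, without passing in either comparison (adjusted p = 0.37 in sh_PIP4K2B and 0.1 in Soft, edgeR). TLR3 was called higher in the fit of Control and Soft alone (70.7% of all genes called). The adaptor gene MAVS was at 188, 186 and 179 CPM in Control, 89.5, 187 and 156 CPM with hairpins #1, #2 and #3, and 162, 170 and 175 CPM in Soft. Its level with hairpin #1 was the only one at least 2-fold below the Control mean among the 49 members in that library (log2 ratio -1.04), and it did not pass (adjusted p = 0.29 in sh_PIP4K2B and 0.67 in Soft, edgeR). TMEM173, which encodes STING, was at 49, 47.6 and 46.8 CPM in Control, 24.8, 38.7 and 36.2 CPM with hairpins #1, #2 and #3, and 84.7, 90.7 and 80.5 CPM in Soft. All hairpin libraries were below Control and all Soft libraries above it, and it rose in Soft (log2 fold change 0.84, SE 0.16, adjusted p = 0.002, edgeR) with a value of -0.52 in sh_PIP4K2B (SE 0.16, adjusted p = 0.047, edgeR).

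Transcription factors of the response were in 2 of 6 cases higher in sh_PIP4K2B (33.3%, against 2.76% of all tested genes). In Soft 3 of 6 were higher (50%, against 15.8% of all tested genes), and none fell in either comparison. IRF1, a factor that drives class I antigen presentation genes (chromosome 5, 132440440 to 132508719, minus strand), was at 16.5, 17.6 and 17.4 CPM in Control, 35.9, 24.8 and 29.9 CPM with hairpins #1, #2 and #3, and 53.3, 55.2 and 50.7 CPM in Soft. The groups did not overlap, with Control lowest and Soft highest. IRF1 rose in sh_PIP4K2B (log2 fold change 0.81, SE 0.14, adjusted p = 0.0054, edgeR) and in Soft (log2 fold change 1.63, SE 0.14, adjusted p = 3.6e-05, edgeR). IRF2, which binds the same sites as IRF1 and can repress them, was at 10.5, 11.1 and 11.7 CPM in Control, 21.5, 15.3 and 25.9 CPM with hairpins #1, #2 and #3, and 21.8, 22 and 22.3 CPM in Soft. It was above Control in all 6 other libraries and rose in sh_PIP4K2B (log2 fold change 0.91, SE 0.18, adjusted p = 0.0094, edgeR) and in Soft (log2 fold change 0.99, SE 0.18, adjusted p = 0.0016, edgeR).

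IRF9, the DNA-binding partner of STAT proteins in the interferon-induced complex, was at 17.9, 18 and 15.2 CPM in Control, 36.6, 18.3 and 24 CPM with hairpins #1, #2 and #3, and 41.3, 39.5 and 38 CPM in Soft. With hairpin #2 it was just above the highest Control library. IRF9 rose in Soft (log2 fold change 1.22, SE 0.22, adjusted p = 0.0018, edgeR) and missed the threshold in sh_PIP4K2B (log2 fold change 0.63, SE 0.22, adjusted p = 0.08, edgeR). Another annotated gene holds 92.7% of the 75-mers of IRF9. Its partner STAT2 was at 78.7, 76.9 and 71.9 CPM in Control, 182, 87.3 and 86.2 CPM with hairpins #1, #2 and #3, and 109, 122 and 117 CPM in Soft. Hairpin #1 was the highest library for STAT2, hairpins #2 and #3 were nearer to Control, and neither comparison passed (adjusted p = 0.12 in sh_PIP4K2B and 0.077 in Soft, edgeR). STAT2 was called higher in Soft in the fit of Control and Soft alone and without hairpin #1 (70.7% and 45.6% of all genes called).

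IRF7, the factor that amplifies interferon production, was at 4.1, 3.29 and 2.93 CPM in Control, 17.3, 2.07 and 7.37 CPM with hairpins #1, #2 and #3, and 4.74, 6.05 and 4.29 CPM in Soft. Hairpins #1 and #3 were above Control and hairpin #2 was below it (log2 fold change 1.37, SE 0.58, adjusted p = 0.13, edgeR in sh_PIP4K2B, and log2 fold change 0.55, SE 0.58, adjusted p = 0.47, edgeR in Soft). IRF3, which is present before infection and activated by phosphorylation, was at 45.3, 45.3 and 44.1 CPM in Control, 74.3, 39.4 and 42.1 CPM with hairpins #1, #2 and #3, and 54.2, 54.8 and 49.7 CPM in Soft. Its hairpin libraries overlapped Control and its Soft libraries lay above by a small margin, with a log2 fold change of 0.21 in sh_PIP4K2B (adjusted p = 0.53, edgeR) and 0.24 in Soft (adjusted p = 0.39, edgeR). In the fit of Control and Soft alone IRF7 and IRF3 were called higher (70.7% of all genes called). Without hairpin #2 IRF7 was called higher in sh_PIP4K2B (14.4% of all genes called).

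Antiviral effectors formed the largest group with 20 members, of which 18 were tested. None passed in sh_PIP4K2B (edgeR), where 5.54% of all tested genes passed, and their median log2 fold change was 0.28. Below an unadjusted p of 0.05 were 8, and DESeq2 called 4 (against 33.2% and 15% of all tested genes). In Soft 1 rose and 4 fell (5.56% and 22.2%, against 15.8% and 14.8% of all tested genes), and the median was -0.13. The share called in either direction in Soft was 27.8%, near the 30.6% of all tested genes. GBP2, a guanylate-binding GTPase that attacks membranes of intracellular pathogens (chromosome 1, 89106132 to 89150456, minus strand), was at 0.838, 0.79 and 0.874 CPM in Control, 1.89, 2.84 and 1.14 CPM with hairpins #1, #2 and #3, and 21.6, 18 and 20.4 CPM in Soft. All Soft libraries were far above the hairpin libraries, and these were above Control. GBP2 had the highest log2 fold change of the members in Soft (log2 fold change 4.58, SE 0.29, adjusted p = 1.0e-05, edgeR) and was above Control with all hairpins without passing (log2 fold change 1.23, SE 0.31, adjusted p = 0.026, edgeR).

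Its neighbour GBP1, of the same family, was at 36.1, 37 and 37 CPM in Control, 25.6, 29.1 and 28.6 CPM with hairpins #1, #2 and #3, and 24.9, 23.9 and 24.6 CPM in Soft. All hairpin and Soft libraries were below Control, and GBP1 fell in Soft (log2 fold change -0.59, SE 0.10, adjusted p = 0.0011, edgeR) while it did not pass in sh_PIP4K2B (log2 fold change -0.40, SE 0.10, adjusted p = 0.021, edgeR). In sh_PIP4K2B GBP1 was called lower by DESeq2 and by edgeR without hairpin #1, #2 or #3. The proteins SAMD9 and SAMD9L restrict poxviruses and slow translation. SAMD9 was at 5.87, 6.85 and 6.29 CPM in Control, 7, 3.13 and 4.84 CPM with hairpins #1, #2 and #3, and 1.69, 1.71 and 1.74 CPM in Soft. SAMD9L was at 30.6, 29.2 and 30.5 CPM in Control, 23.8, 16.2 and 27.2 CPM with hairpins #1, #2 and #3, and 16.6, 15.4 and 17.1 CPM in Soft. Both genes were below Control in every Soft library and fell there (log2 fold change -1.88, SE 0.27, adjusted p = 5.4e-04, edgeR for SAMD9, and log2 fold change -0.88, SE 0.17, adjusted p = 0.0027, edgeR for SAMD9L), and neither passed in sh_PIP4K2B (adjusted p = 0.38 and 0.12, edgeR).

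OAS3, a long form of the oligoadenylate synthetases, which are switched on by double-stranded RNA, was at 44.4, 42.2 and 41.3 CPM in Control, 32, 20.3 and 18.6 CPM with hairpins #1, #2 and #3, and 23.9, 26.9 and 25.1 CPM in Soft. It was below Control in all hairpin and Soft libraries, fell in Soft (log2 fold change -0.75, SE 0.19, adjusted p = 0.0092, edgeR) and missed the threshold in sh_PIP4K2B (log2 fold change -0.85, SE 0.19, adjusted p = 0.016, edgeR). In sh_PIP4K2B OAS3 was called lower by DESeq2 and by edgeR without hairpin #1. OAS2 was at 1.16, 1.14 and 1.44 CPM in Control, 1.98, 0.578 and 0.395 CPM with hairpins #1, #2 and #3, and 0.274, 0.429 and 0.268 CPM in Soft, with hairpin #1 above Control and hairpins #2 and #3 below it. OASL, which supports RIG-I signalling, was at 0.559, 0.702 and 0.306 CPM in Control, 2.21, 2.17 and 0.692 CPM with hairpins #1, #2 and #3, and 0.456, 0.381 and 0.581 CPM in Soft. The OAS family thus held members above Control (OAS1 and OAS2 with hairpin #1, OASL with hairpins #1 and #2) and below it (OAS3) in the same libraries. OAS1, OAS2 and OASL did not pass in either comparison with Control in edgeR over the 9 libraries. In Soft OAS1 and OAS2 were below every Control library (adjusted p = 0.042 and 0.022, edgeR), and both were called lower there by DESeq2 and in the fit of Control and Soft alone. In sh_PIP4K2B edgeR called OAS1 lower without hairpin #1 and OASL higher without hairpin #3.

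IFITM2 belongs to the membrane proteins that block viral entry, and was at 54.9, 52.3 and 52 CPM in Control, 44.6, 48.3 and 40.6 CPM with hairpins #1, #2 and #3, and 70.8, 65.3 and 67.9 CPM in Soft. Its hairpin libraries were below and its Soft libraries above Control, and neither comparison passed (log2 fold change -0.25, SE 0.10, adjusted p = 0.11, edgeR in sh_PIP4K2B, and log2 fold change 0.36, SE 0.10, adjusted p = 0.015, edgeR in Soft). In Soft IFITM2 was called higher in 7 of 16 other settings, among them DESeq2 and the fit of Control and Soft alone. For IFITM1, IFITM2 and IFITM3, 52.2%, 7.08% and 12.5% of the 75-mers occur in another gene, among them each other, so the split of counts between them is uncertain. The remaining effectors that were tested and did not pass in either comparison in edgeR over the 9 libraries were ISG20, IFIT1, IFIT2, IFIT3, IFIT5, MX1, IFITM1, IFITM3 and BST2, and their Soft log2 fold changes ran from -0.43 (IFIT1) to 2.11 (ISG20). Of these DESeq2 called ISG20 higher in both comparisons and IFIT2 and IFIT3 higher in Soft. The fit of Control and Soft alone called ISG20, IFIT2, IFIT3 and IFITM3 higher and IFIT1 lower.

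Enzymes of the ISG15 system and related ubiquitin and ADP-ribose enzymes numbered 8, all tested, of which 1 rose in sh_PIP4K2B, and 2 rose and 1 fell in Soft. These are 12.5%, 25% and 12.5% of the 8, against 2.76%, 15.8% and 14.8% of all tested genes. HERC5 is the ligase that attaches the ubiquitin-like protein ISG15 to newly made proteins (chromosome 4, 88457119 to 88506163, plus strand). It was at 4.89, 3.86 and 5.02 CPM in Control, 24.2, 12.5 and 17.4 CPM with hairpins #1, #2 and #3, and 3.92, 4.48 and 4.47 CPM in Soft. Each hairpin library was above all Control libraries and the Soft libraries overlapped with Control. HERC5 rose in sh_PIP4K2B (log2 fold change 1.97, SE 0.24, adjusted p = 0.0013, edgeR), and its value in Soft was -0.10 (SE 0.24, adjusted p = 0.76, edgeR), which turned to 0.01 when libraries were scaled by total counts only.

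UBE2L6, the conjugating enzyme that passes ISG15 to HERC5, was at 11, 11 and 9.7 CPM in Control, 14, 13.8 and 18.9 CPM with hairpins #1, #2 and #3, and 37.3, 35 and 36.8 CPM in Soft. It was above Control in all 6 other libraries, rose in Soft (log2 fold change 1.78, SE 0.14, adjusted p = 2.6e-05, edgeR) and missed the threshold in sh_PIP4K2B (log2 fold change 0.56, SE 0.14, adjusted p = 0.028, edgeR). ISG15 itself was at 24.3, 23 and 21.8 CPM in Control, 42.8, 16.9 and 8.85 CPM with hairpins #1, #2 and #3, and 11.1, 11.4 and 11.1 CPM in Soft. Its hairpin libraries lay on both sides of Control and its Soft libraries all below it, without passing (adjusted p = 0.99 in sh_PIP4K2B and 0.082 in Soft, edgeR). ISG15 was called lower in Soft in the fit of Control and Soft alone and without hairpin #1 (70.7% and 45.6% of all genes called). USP18, the protease that removes ISG15 and restrains the interferon receptor, was at 4.42, 4.43 and 5.07 CPM in Control, 8.84, 2.07 and 4.7 CPM with hairpins #1, #2 and #3, and 1.23, 1.52 and 1.34 CPM in Soft. All Soft libraries were below Control and USP18 fell there (log2 fold change -1.76, SE 0.44, adjusted p = 0.0097, edgeR), whereas the hairpin libraries overlapped with Control (log2 fold change 0.17, SE 0.41, adjusted p = 0.81, edgeR), and 43.7% of its 75-mers occur in other annotated genes. PARP14, an ADP-ribosyltransferase, was at 27, 26.5 and 27.5 CPM in Control, 50.3, 28.2 and 33.2 CPM with hairpins #1, #2 and #3, and 54.5, 53.4 and 56.5 CPM in Soft. It rose in Soft (log2 fold change 1.02, SE 0.19, adjusted p = 0.0019, edgeR) and missed the threshold in sh_PIP4K2B (log2 fold change 0.47, SE 0.19, adjusted p = 0.12, edgeR).

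Other interferon-induced genes were 6, of which 4 were tested, with 1 rising in sh_PIP4K2B, and 1 rising and 1 falling in Soft. Each of these counts is 25% of the 4, against 2.76%, 15.8% and 14.8% of all tested genes. IFI6, a small protein of the endoplasmic reticulum and mitochondria that blocks flavivirus replication (chromosome 1, 27666064 to 27672212, minus strand), was at 104, 97.7 and 101 CPM in Control, 376, 316 and 151 CPM with hairpins #1, #2 and #3, and 21.3, 20.3 and 16.6 CPM in Soft. The 3 groups did not overlap, with the hairpin libraries highest and Soft lowest. IFI6 rose in sh_PIP4K2B (log2 fold change 1.48, SE 0.28, adjusted p = 0.0085, edgeR) and fell in Soft (log2 fold change -2.38, SE 0.29, adjusted p = 2.2e-04, edgeR). Hairpin #3 was the weakest at 1.5-fold of the Control mean, against 3.73-fold and 3.13-fold for #1 and #2. In another annotated gene 19.2% of its 75-mers occur. IFI35, an interferon-induced leucine zipper protein, was at 9.36, 7.68 and 6.82 CPM in Control, 14, 5.3 and 5.73 CPM with hairpins #1, #2 and #3, and 19.5, 20.6 and 19 CPM in Soft. It rose in Soft (log2 fold change 1.31, SE 0.33, adjusted p = 0.0099, edgeR), while its hairpin libraries lay on both sides of Control, with a log2 fold change in sh_PIP4K2B of 0.07 that became -0.53 without hairpin #1.

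Of the antigen presentation genes 3 of 6 rose in sh_PIP4K2B and 5 of 6 in Soft (50% and 83.3%, against 2.76% and 15.8% of all tested genes). As for the transcription factors, no log2 fold change of the group was below 0 in either comparison. The median log2 fold change of the 6 was 0.92 in sh_PIP4K2B and 0.85 in Soft. HLA-B encodes a class I heavy chain, which carries peptides to the cell surface (chromosome 6, 31353872 to 31367067, minus strand). It was at 297, 291 and 288 CPM in Control, 854, 747 and 725 CPM with hairpins #1, #2 and #3, and 589, 583 and 584 CPM in Soft. Every hairpin library was above every Soft library, and these were above every Control library. HLA-B rose in sh_PIP4K2B (log2 fold change 1.41, SE 0.11, adjusted p = 3.8e-04, edgeR) and in Soft (log2 fold change 1.00, SE 0.11, adjusted p = 1.1e-04, edgeR), and passed in sh_PIP4K2B with each library left out in turn.

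HLA-C, another class I heavy chain, was at 567, 549 and 539 CPM in Control, 1370, 1070 and 905 CPM with hairpins #1, #2 and #3, and 920, 882 and 885 CPM in Soft. It was above Control in all hairpin and Soft libraries and rose in sh_PIP4K2B (log2 fold change 1.02, SE 0.15, adjusted p = 0.0032, edgeR) and in Soft (log2 fold change 0.70, SE 0.15, adjusted p = 0.0046, edgeR). B2M, the light chain that all class I molecules need, was at 475, 500 and 517 CPM in Control, 879, 806 and 943 CPM with hairpins #1, #2 and #3, and 794, 727 and 762 CPM in Soft. As for HLA-B, every hairpin library was above every Soft library and these above Control, and B2M rose in sh_PIP4K2B (log2 fold change 0.82, SE 0.11, adjusted p = 0.0021, edgeR) and in Soft (log2 fold change 0.61, SE 0.11, adjusted p = 0.0018, edgeR). In CPM per kb of the canonical transcript, B2M was at 528, HLA-C at 358 and HLA-B at 190 in Control, which with IFITM3 at 227 and IFI6 at 124 are the 5 highest members on this scale.

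The proteasome subunits PSMB8 and PSMB9 replace constitutive subunits in the immunoproteasome, which cuts peptides for class I molecules. PSMB8 was at 34.1, 33.1 and 34.3 CPM in Control, 39.8, 48 and 38.8 CPM with hairpins #1, #2 and #3, and 72.8, 70.4 and 66.6 CPM in Soft. PSMB9 was at 3.07, 3.25 and 2.88 CPM in Control, 7.74, 4.72 and 3.06 CPM with hairpins #1, #2 and #3, and 16.9, 16.4 and 14 CPM in Soft. Both rose in Soft (log2 fold change 1.05, SE 0.11, adjusted p = 9.2e-05, edgeR for PSMB8, and log2 fold change 2.36, SE 0.29, adjusted p = 2.2e-04, edgeR for PSMB9), where all libraries were above all others, and neither passed in sh_PIP4K2B (adjusted p = 0.072 and 0.1, edgeR). TAP1, a subunit of the transporter that moves peptides into the endoplasmic reticulum and lies on the opposite strand at the PSMB9 locus, was at 39.2, 35.9 and 32.2 CPM in Control, 85.6, 119 and 48.6 CPM with hairpins #1, #2 and #3, and 56.8, 57.4 and 52.5 CPM in Soft. It was above Control in all hairpin and Soft libraries and did not pass in sh_PIP4K2B (log2 fold change 1.24, SE 0.26, adjusted p = 0.014, edgeR) or in Soft (log2 fold change 0.64, SE 0.26, adjusted p = 0.072, edgeR). In Soft TAP1 was called higher in the fit of Control and Soft alone and without hairpin #3. In sh_PIP4K2B it was called higher by DESeq2, with library size scaling and without hairpin #3.

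**Figure D4:**
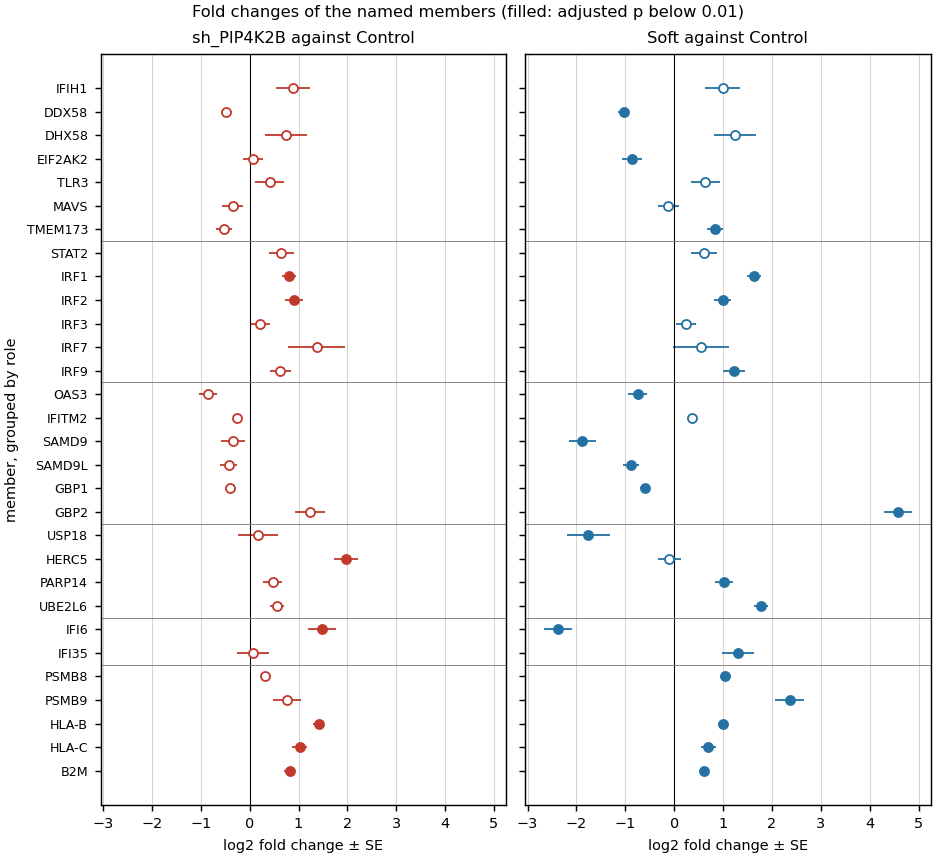
Log2 fold change ± SE of the 30 named members in sh_PIP4K2B (left, red) and Soft (right, blue) against Control, with 3 libraries in each condition, members grouped by role, and filled points for an adjusted p below 0.01 (edgeR). The 7 filled points on the left are all above 0, and on the right 13 are above and 8 below 0.

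Of the 21 members called in Soft, 10 were called in each of the 16 other settings tried, namely DDX58, GBP1, GBP2, HLA-B, IFI6, IRF1, PSMB8, PSMB9, SAMD9 and UBE2L6. With Control replicate 1, 2 or 3 left out 12 members passed (with 19.4%, 18.2% and 17.9% of all genes), and with Soft replicate 1, 2 or 3 left out 14 passed (with 18.8%, 18.4% and 18.2%). Without hairpin #1, #2 or #3 33, 25 and 26 members passed, with 45.6%, 36.9% and 41.7% of all genes. The other 11 lost the call in at least 1 setting and were B2M, HLA-C, IFI35, IRF2, IRF9, PARP14 and TMEM173, which were higher, and EIF2AK2, OAS3, SAMD9L and USP18, which were lower. In a fit of Control and Soft alone 40 passed, 28 higher and 12 lower, where 70.7% of all genes tested passed. At least 2-fold above the Control mean in Soft replicates 1, 2 and 3 were 13, 9 and 12 members (26.5%, 18.4% and 24.5%, against 12.9%, 13.1% and 13% of all genes). At least 2-fold below it were 7 in each (14.3%, against 8.39%, 8.55% and 8.52%). In all 3 of them 8 members were 2-fold higher and 7 were 2-fold lower (16.3% and 14.3%, against 10.8% and 6.19% of all genes). At an unadjusted p below 0.05 there were 34 members in Soft, where 54.3% of all genes were below it. Relative to Control, 29 members had all Soft libraries above and 15 had them all below the Control range (59.2% and 30.6%, against 40.4% and 39.1% of all genes and 79.4% in either direction), whereas the hairpin libraries were all above for 17 and all below for 6 (34.7% and 12.2%, against 17.4% and 16.7%, and 34.1% in either direction).

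By the presence of the ISRE core printed above for 10 of them, tested members in Soft split as follows. Among 23 tested members with a core 2 rose and 5 fell, with a median log2 fold change of -0.02. Among 15 tested members with a window and no core 8 rose and 2 fell, with a median of 0.70. Of all tested genes 15.8% rose and 14.8% fell in Soft. In sh_PIP4K2B 3 of the 23 and 3 of the 15 rose (against 2.76% of all tested genes), with medians of 0.47 and 0.56, and with hairpin #1 the medians were 0.90 and 1.06. These are counts of letters in windows, given with no test. The split overlaps the role groups, since HLA-B, HLA-C, PSMB8, PSMB9, IRF1 and IRF9 are all without a core. It leaves out the 12 members without a window, among them GBP2, TMEM173, IRF2 and USP18, which were called in Soft.

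Soft and sh_PIP4K2B were compared directly, and 13 of the 49 members differed, 7 higher and 6 lower in Soft (26.5% in all, against 30% of all tested genes, 14.5% higher and 15.5% lower). Below an unadjusted p of 0.05 were 23 members and 53.7% of all genes. Higher in Soft than in sh_PIP4K2B were GBP2, PSMB9, TMEM173, UBE2L6, IRF1, PSMB8 and IFITM2, with log2 differences from 0.61 (IFITM2) to 3.35 (GBP2). Lower in Soft were IFI6, HERC5, USP18, SAMD9, EIF2AK2 and DDX58, with log2 differences from -0.55 (DDX58) to -3.86 (IFI6). For HLA-B, HLA-C and B2M the differences were -0.41, -0.32 and -0.20 (adjusted p = 0.012, 0.11 and 0.16, edgeR), and none of these passed in edgeR over the 9 libraries. HLA-B was called lower in Soft than in sh_PIP4K2B by DESeq2 and by edgeR without hairpin #1, #2 or #3. The median of the members was -0.03, as was that of all genes.

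The other 4 members had too few counts to be tested. RSAD2, the gene of the antiviral enzyme viperin, had 1, 2 and 1 counts in Control, 19, 7 and 1 with hairpins #1, #2 and #3, and 0, 0 and 0 in Soft, where a count of 0 allows up to 3 counts in a library. MX2, a relative of MX1 that blocks nuclear entry of retroviruses, had 5, 10 and 9 counts in Control, 41, 1 and 5 with hairpins #1, #2 and #3, and 1, 1 and 1 in Soft. For both the library of hairpin #1 was the highest. IFI27 had 8, 11 and 10 counts in Control, 14, 8 and 6 with hairpins #1, #2 and #3, and 6, 6 and 6 in Soft, and XAF1 had 3, 5 and 0 counts in Control, 9, 1 and 0 with hairpins #1, #2 and #3, and 1, 1 and 0 in Soft.

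Further genes of the pathway were taken from lists written with earlier results of these data known. Of 9 interferon genes 2 were tested (IFNA1 and IFNE), and over the 9 libraries none passed in either comparison by edgeR or DESeq2, with none in sh_PIP4K2B and 1 in Soft below an unadjusted p of 0.05. In the fit of Control and Soft alone 1 of the 2 was called higher. IFNB1, IFNK, IFNG, IFNL1, IFNL2 and IFNL3 had no count in any library, which allows up to 3 counts in each. Of 14 receptors, kinases and regulators of the response 1 rose in sh_PIP4K2B and 4 rose in Soft, where of all tested genes 2.76% and 15.8% rose. The feedback inhibitor SOCS3 rose in both (log2 fold change 1.24, SE 0.13, adjusted p = 9.7e-04, edgeR in sh_PIP4K2B, and log2 fold change 1.23, SE 0.13, adjusted p = 1.2e-04, edgeR in Soft), while SOCS1, the interferon gamma receptor chain IFNGR2 and the interferon lambda receptor IFNLR1 rose in Soft by 2.39, 1.01 and 1.51 on the log2 scale (adjusted p = 1.6e-05, 5.5e-04 and 8.4e-04, edgeR).

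Of 15 other sensors, adaptors and kinases tested, 1 rose in sh_PIP4K2B, and 3 rose and 1 fell in Soft (against 2.76%, 15.8% and 14.8% of all tested genes). The DNA sensor IFI16 rose in both (log2 fold change 0.55, SE 0.10, adjusted p = 0.0085, edgeR in sh_PIP4K2B, and log2 fold change 0.64, SE 0.10, adjusted p = 9.3e-04, edgeR in Soft). In Soft the mitochondrial regulator NLRX1 rose by 0.79 on the log2 scale, and PNPT1, which degrades mitochondrial RNA, fell with a log2 fold change of -1.25 (adjusted p = 0.0012 and 0.0026, edgeR). The DNA sensor cGAS, listed under its older symbol MB21D1, was not tested and had 2, 2 and 0 counts in Control, 18, 9 and 27 with hairpins #1, #2 and #3, and 0, 2 and 0 in Soft. It was named after its values were seen, and its counts with every hairpin were above those of every other library.

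Of 16 other antigen presentation genes tested, 3 rose in sh_PIP4K2B and 10 in Soft (against 2.76% and 15.8% of all tested genes), and none fell. HLA-F and TAPBPL rose in sh_PIP4K2B by 1.44 and 0.87 and in Soft by 1.89 and 1.95, and TAPBP, which loads peptides onto class I molecules, rose in Soft by 1.15 (adjusted p in Soft = 3.2e-05, 2.8e-05 and 2.9e-05, edgeR). Of 33 other interferon-stimulated genes tested, none passed in sh_PIP4K2B (edgeR), where 5.54% of all tested genes passed. Below an unadjusted p of 0.05 were 7 of the 33, and DESeq2 called 4 (against 33.2% and 15% of all tested genes). In Soft 7 of the 33 rose and 2 fell, against 15.8% and 14.8% of all tested genes. APOL6, TRANK1 and PML rose there by 2.40, 2.67 and 0.74, and SP110 fell with -0.95 (adjusted p = 2.3e-05, 2.9e-04, 0.0012 and 0.0012, edgeR).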

How the data were processed

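RNA from 9 libraries was sequenced with a stranded kit in reads of 75 nt. The authors deposited estimated counts per gene symbol, made with STAR and Salmon per the labels (settings and annotation are not given in the sources used here), and 12.3% of the values were not whole. These counts were rounded and analysed in R 4.3.3 with edgeR 4.0.16 (TMM scaling, filterByExpr, 1 quasi-likelihood fit over the 3 conditions). P-values were adjusted by Benjamini-Hochberg over all 13784 genes tested, with a threshold of 0.01. The SE was taken from the log2 fold change and its F statistic. DESeq2 1.42.0, other scalings and filters, fits of only the 2 conditions compared, a replicate block and leaving out each library in turn were alternatives. For single libraries the log2 ratio to the Control mean was computed with a prior of 0.5 counts and called at 2-fold. The code was tested on simulated data in which every library had the spread of Control and Soft. That check leaves out the larger spread between hairpins, so it does not bear on the calls in sh_PIP4K2B. Whether replicates came from separate cultures is not stated, so the spread within Control and within Soft may be technical. The p-values of all comparisons rest on 1 estimate of spread shared by the 3 conditions. It pools the median SD of log2 CPM of 0.0812 in Control and 0.0735 in Soft with that of 0.361 between different hairpins. The p-values in sh_PIP4K2B thus understate the spread between hairpins, and those in Soft overstate the spread within Control and Soft.

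Members and gene lists were chosen with earlier results of these data known. Members were named when they passed in any comparison or were 2-fold changed with all 3 hairpins, and sensors and transcription factors were named in any case. MX1, OAS1, OAS2, OASL, IFIT1, ISG15 and TAP1 were named after their values were seen. From each other list at most 4 genes with the lowest adjusted p were named, and 2 of these are not reported here. Gene positions are from GENCODE v44 (GRCh38), and DDX58 and TMEM173 were matched through RefSeq synonyms.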

Additional observations from a re-analysis of the deposited data

Results flagged for a closer look

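For 13 of the 49 tested members (26.5%, against 30% of all tested genes) the difference between Soft and sh_PIP4K2B itself passed the threshold in edgeR. For these 13 the changes relative to the shared Control libraries thus differed between the 2 conditions. The log2 difference of Soft minus sh_PIP4K2B was 3.35 for GBP2, 1.60 for PSMB9, 1.36 for TMEM173, 1.22 for UBE2L6, 0.81 for IRF1, 0.73 for PSMB8 and 0.61 for IFITM2. It was -3.86 for IFI6, -2.07 for HERC5, -1.93 for USP18, -1.54 for SAMD9, -0.93 for EIF2AK2 and -0.55 for DDX58. IFI6, TMEM173 and IFITM2 were the 3 members whose hairpin and Soft libraries all lay on opposite sides of the Control range. The share of all tested genes with this trait is not given here, so the count is not read as particular to the members. Of all tested genes 34.1% lay outside the Control range with the hairpins and 79.4% in Soft.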

How the results depend on the processing

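The number of members past the threshold in sh_PIP4K2B was 7 (with 5.54% of all tested genes past it). It became 14 with DESeq2, 0 in a fit of Control and sh_PIP4K2B alone and 3 with a replicate block (15%, 0.0375% and 2.14% of all genes). With 1 library left out it ranged from 1 to 12 (0.471% to 14.4% of all genes). At an adjusted p below 0.05 it was 16, for which the share of all genes is not given here. In Soft the number was 21 and became 40 in a fit of Control and Soft alone (30.6% and 70.7% of all genes). With 1 library left out it ranged from 12 to 33 (17.9% to 45.6% of all genes). Between Soft and sh_PIP4K2B the number was 13 and became 8 in a fit of these conditions alone (30% and 16.1% of all genes). With 1 library left out it ranged from 9 to 27 (16.8% to 38.4% of all genes). At 1.5-fold in place of 2-fold, 35, 21 and 17 members (71.4%, 42.9% and 34.7%) differed from the Control mean with hairpins #1, #2 and #3, in place of 24, 13 and 11, against 40.8%, 23.1% and 31.2% of all genes. No called member changed its direction in any setting. Of the values in sh_PIP4K2B that did not pass, IFI35 turned to -0.01 with the replicate block, and with 1 library left out IFI35 ranged from -0.53 (without hairpin #1) to 0.31 and was -0.03 without Control replicate 3. Without hairpin #1 the values of IRF3, USP18 and EIF2AK2 were -0.14, -0.46 and -0.23, the lowest of ranges that reached 0.37, 0.54 and 0.26, and TLR3 ranged from -0.04 (without hairpin #2) to 0.60. HERC5 in Soft turned to 0.01 with library size scaling. The causes were not tested.

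The replicate numbers are shared across conditions, but their deviations from the group means did not go together (r between -0.123 and 0.0405 over genes for equal numbers, with r for Control and Soft below 0 in all 3 pairs), so they were not taken as pairs. The replicate block left 3 members called in sh_PIP4K2B and 20 in Soft (with 2.14% and 25.7% of all tested genes called). Depth limits RSAD2, XAF1, IFI27 and MX2, which had at most 41 counts in a library.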
